A study of Caenorhabditis elegans with 9 samples.

Results

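The 10 genes described here make up the core of the Notch pathway of the nematode Caenorhabditis elegans, out of 17118 genes measured on Affymetrix arrays of mixed-stage embryos. They were chosen by name for their role, though with earlier results of these data known. Every probe set annotated to 1 of them alone was taken, which gave 14 of the 22625 probe sets. They are the receptors glp-1 and lin-12, the ligands lag-2 and apx-1, the nuclear effectors lag-1 and sel-8, and the receptor-processing genes sup-17, sel-12, hop-1 and aph-1. All 10 were measured. Total RNA was hybridised on 9 arrays, 3 for each of 3 groups of embryos from XX worms kept at 20 °C. Control embryos came from wild-type (N2) worms fed for 96 hours on an RNAi strain with the empty vector L4440. For smo-1 RNAi, N2 worms were kept for 24 hours on HB101 and for a further 72 hours on RNAi plates against smo-1, which encodes SUMO, a small protein attached to other proteins. The sdc-2(y93)+RNAi embryos came from worms carrying the sdc-2 allele y93, with the same times, and are labelled as given sdc-2 RNAi. SDC-2 brings the dosage compensation complex to the X chromosomes of XX animals, where it lowers expression.

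In Notch signalling a ligand on the surface of 1 cell binds a receptor on its neighbour, and the receptor is then cut, first outside the membrane by a protease of the ADAM family and then within the membrane by the presenilin protease complex, gamma-secretase. The freed inner part of the receptor enters the nucleus and switches on target genes together with a DNA-binding protein of the CSL family and a coactivator. In C. elegans embryos repeated Notch interactions between neighbouring cells set the fates of early blastomeres, and GLP-1 also keeps the germline stem cells of the parent dividing.

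Several measurements of whole arrays bear on these genes. The targeted messenger, smo-1, was 12.7-fold lower under smo-1 RNAi than in control (log2 difference -3.67 ± 0.17, SE, limma adjusted p = 6.55e-08) and 2.07-fold lower under sdc-2(y93)+RNAi (-1.05 ± 0.17, limma adjusted p = 0.000942), although the labels name RNAi against sdc-2 for the latter. The growth protocol names only a plasmid against smo-1 for both RNAi groups, so for the Notch genes the effects of the y93 allele, of sdc-2 RNAi and of a lower smo-1 level cannot be told apart. The male-promoting gene her-1, which SDC-2 represses in XX animals, was 5.57-fold above control under sdc-2(y93)+RNAi (2.48 ± 0.10, limma adjusted p = 4.18e-07) and 1.25-fold above it under smo-1 RNAi (0.32 ± 0.10, adjusted p = 0.032). The sdc-2 level was 1.28-fold lower under sdc-2(y93)+RNAi by the brighter of its probe sets (-0.35 ± 0.16, limma adjusted p = 0.14) and differed by -1.38 ± 0.10 by the other (limma adjusted p = 1.48e-05 over all probe sets with 1 gene). Probe sets for the manufacturer's hybridisation controls, 18 in number, lay between 4.64 and 6.45 on control and smo-1 RNAi arrays and between 6.49 and 13.2 on sdc-2(y93)+RNAi arrays, so a signal that does not come from worm RNA differs with that group and cannot be told apart from it. The labels do not say whether the arrays of a group come from separate cultures, so the spread behind each p-value may be technical. With 3 arrays per group the precision of each value is limited, and in whole embryos fewer cells expressing a gene and less RNA per cell cannot be told apart.

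Under smo-1 RNAi 3 of the 10 genes fell against control, the receptors glp-1 and lin-12 and the presenilin gene sel-12, and the other 7 did not pass the test (limma, Benjamini-Hochberg adjusted p below 0.05 over all genes). The share of all genes past this threshold was 39.9% in this comparison, so 3 of 10 called is not more than that background. All 3 fell, which is 30% of the 10 against 22.2% of all genes, a small difference for so few genes. Of the genes above the median level, as 8 of these 10 were, 60.7% passed. The median log2 difference of the 10 genes was -0.28, against -0.0021 over all genes and -0.17 over those above the median level. Under sdc-2(y93)+RNAi 4 of the 10 passed: lin-12 fell, and apx-1, lag-1 and sup-17 rose. There the share of all genes past the threshold was 26.5%, with 10.9% higher and 15.6% lower, and 47.7% among genes above the median level. The 3 that rose were represented by probe sets of a low-numbered class, and outside that class none of the 3 was higher than control. The comparisons with control share the same 3 control arrays.

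**Figure D1:**
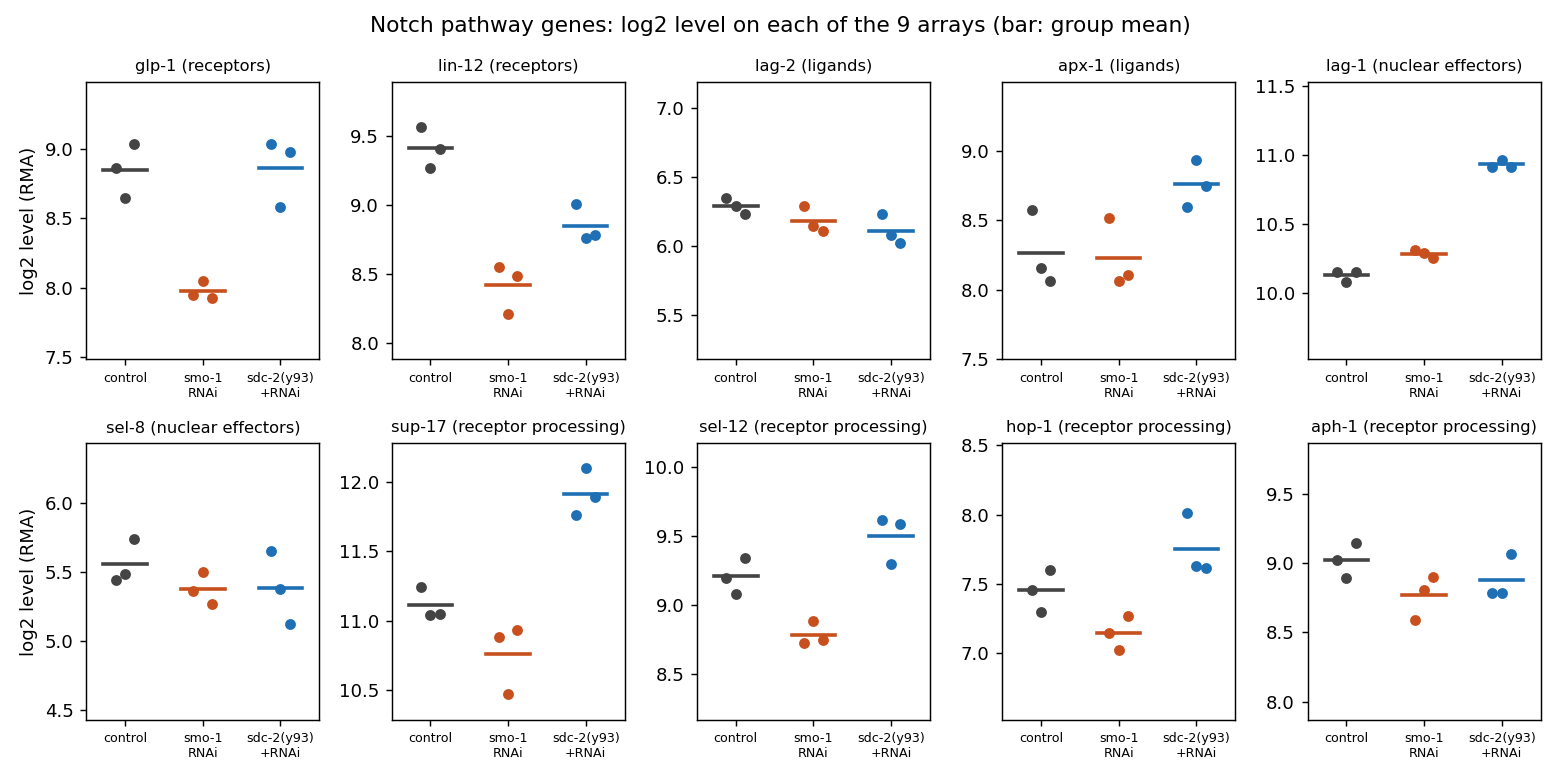
Log2 level (RMA, y axis) of each of the 10 Notch pathway genes on each array, by group (x axis); points are arrays and bars are group means, and every panel spans the same height in log2 units. The smo-1 RNAi points of glp-1 and lin-12 lie below all control points, and the sdc-2(y93)+RNAi points of lag-1 and sup-17 lie above all control points.

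Both receptors were lower under smo-1 RNAi. GLP-1 is supplied to the early embryo from maternal messenger, whose translation is localised, and LIN-12 acts in later cell interactions and in the development of the vulva and gonad. On the log2 scale glp-1 read 8.86, 8.65 and 9.04 on the control arrays, 7.95, 8.05 and 7.93 on the smo-1 RNAi arrays, and 9.04, 8.58 and 8.98 on the sdc-2(y93)+RNAi arrays. All 3 smo-1 RNAi arrays lay below every other array, while the control and sdc-2(y93)+RNAi arrays overlapped. The level of glp-1 was 8.85 ± 0.20 (SD, n = 3) in control and 7.97 ± 0.07 (n = 3) under smo-1 RNAi, a 1.83-fold fall (log2 -0.87 ± 0.14, SE, limma adjusted p = 0.000449). The glp-1 level under sdc-2(y93)+RNAi differed from control by 0.02 ± 0.14 (limma adjusted p = 0.945), with a 95% interval from -0.29 to 0.32. Compared directly, glp-1 was 1.86-fold lower with smo-1 RNAi against sdc-2(y93)+RNAi (log2 -0.89 ± 0.14, limma adjusted p = 0.000455).

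The other receptor, lin-12, was lower in both perturbed groups. It read 9.56, 9.26 and 9.41 on the control arrays, 8.55, 8.21 and 8.49 on the smo-1 RNAi arrays, and 9.004, 8.76 and 8.78 on the sdc-2(y93)+RNAi arrays. The 3 groups did not overlap, and control was highest and smo-1 RNAi lowest. The fall of lin-12 was 1.99-fold under smo-1 RNAi (log2 -0.99 ± 0.12, limma adjusted p = 7.99e-05) and 1.48-fold under sdc-2(y93)+RNAi (-0.56 ± 0.12, limma adjusted p = 0.00573). With each array centred on bright autosomal genes the latter was -0.30 and no longer passed (limma adjusted p = 0.0762). Between the perturbed groups lin-12 differed by 1.35-fold (-0.43 ± 0.12, limma adjusted p = 0.0167), a call lost without smo-1 RNAi replicate 2 (adjusted p = 0.0726) or without sdc-2(y93)+RNAi replicate 1 (adjusted p = 0.0605). The fall of both receptors under smo-1 RNAi passed under every one of the 20 alternatives computed for each, with adjusted p up to 0.0028 for glp-1 and 0.000632 for lin-12. Not all of these could alter the size of the fall. Each receptor has only 1 probe set, so the choice of probe sets left its values as they were. The probe sets of both receptors end in _s_at, a mark for probes that can bind more than 1 transcript. Where such probe sets were removed both receptors dropped out, so no alternative bears on this point. The genes lie close together on chromosome III, with 6 protein-coding genes between them.

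Genes whose level followed the receptors most closely over the 9 arrays were named by rank among the 8559 genes above the median level. For glp-1 these were cey-3 (Pearson r = 0.993), which encodes a cold-shock domain protein, era-1 (r = 0.993) and dnj-7 (r = 0.989), a gene of the DnaJ chaperone family. The level of era-1 was 8.49 in control, 6.82 in smo-1 RNAi and 8.49 under sdc-2(y93)+RNAi, with smo-1 RNAi the low group as for glp-1. For lin-12 the closest were bath-9 (r = 0.978), sym-1 (r = 0.977) and lin-52 (r = 0.977), a gene of the DRM complex. The level of lin-52 was 9.30, 8.32 and 8.70 in the same groups, again stepping down from control to sdc-2(y93)+RNAi to smo-1 RNAi. These correlations are descriptions, since the 9 arrays fall into 3 groups and share their normalization. Among the 10 Notch genes themselves glp-1 lay closest to sel-12 (r = 0.93) and to hop-1 (r = 0.82), and its correlation with lin-12 was 0.76.

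The ligands gave no fall that passed the test. LAG-2, which signals from the somatic gonad to the germline and also acts in the embryo, was dim: lag-2 read 6.35, 6.29 and 6.23 in control, 6.29, 6.15 and 6.11 in smo-1 RNAi and 6.23, 6.08 and 6.02 under sdc-2(y93)+RNAi. The groups overlapped, and these levels lie in the range of the hybridisation controls on arrays where those controls were low, 4.64 to 6.45. The difference of lag-2 from control was -0.11 ± 0.09 under smo-1 RNAi (limma adjusted p = 0.429, 95% interval -0.31 to 0.10) and -0.18 ± 0.09 under sdc-2(y93)+RNAi (adjusted p = 0.206, interval -0.38 to 0.03). APX-1 is the maternal ligand of the first Notch interaction of the embryo, and apx-1 had a pair of probe sets, which disagreed. The brighter one read 8.57, 8.15 and 8.06 in control, 8.52, 8.06 and 8.11 in smo-1 RNAi and 8.60, 8.94 and 8.75 under sdc-2(y93)+RNAi. By it apx-1 was 1.41-fold higher under sdc-2(y93)+RNAi (log2 0.50 ± 0.16, limma adjusted p = 0.0447) and differed by -0.03 ± 0.16 under smo-1 RNAi (adjusted p = 0.916, interval -0.39 to 0.33). The rise did not pass once any 1 of 6 arrays was dropped: control replicates 2 and 3 (adjusted p = 0.135 and 0.166), smo-1 RNAi replicates 2 and 3 (0.0523 and 0.0578), or sdc-2(y93)+RNAi replicates 2 and 3 (0.136 and 0.0942). The dimmer probe set of apx-1 read 6.03, 5.97 and 5.96, then 5.76, 5.77 and 5.84, then 5.63, 5.87 and 5.84 in the same order of groups. It was thus lower, not higher, under sdc-2(y93)+RNAi, by a difference of -0.21 ± 0.09 that did not pass (limma adjusted p = 0.111 over all probe sets with 1 gene). The levels of this dimmer apx-1 probe set also lie in the range of 4.64 to 6.45, where a small rise may not be seen. The gene lies near lag-2 on chromosome V, with 6 protein-coding genes between them.

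Of the nuclear effectors, lag-1 encodes the CSL DNA-binding protein, and its probe sets also disagreed. The brighter one read 10.16, 10.08 and 10.15 in control, 10.31, 10.29 and 10.26 in smo-1 RNAi and 10.91, 10.97 and 10.91 under sdc-2(y93)+RNAi, 3 groups with narrow spreads and no overlap. By this probe set lag-1 was 1.74-fold higher under sdc-2(y93)+RNAi (log2 0.80 ± 0.08, limma adjusted p = 5.92e-05) and 0.16 ± 0.08 above control under smo-1 RNAi (adjusted p = 0.139). The dimmer one read 8.77, 8.88 and 8.97 in control, 8.20, 7.83 and 7.91 in smo-1 RNAi and 8.88, 8.71 and 8.90 under sdc-2(y93)+RNAi. There the smo-1 RNAi arrays lay below all others and control and sdc-2(y93)+RNAi arrays overlapped, the pattern also seen for glp-1. By the dimmer probe set lag-1 was 1.85-fold lower under smo-1 RNAi (-0.89 ± 0.11, limma adjusted p = 0.000112 over all probe sets with 1 gene) and differed by -0.04 ± 0.11 under sdc-2(y93)+RNAi (adjusted p = 0.838). The lag-1 probe sets thus differ on whether either group differed from control, and agree only that smo-1 RNAi was below sdc-2(y93)+RNAi (-0.64 ± 0.08 and -0.85 ± 0.11). The coactivator gene sel-8, of a glutamine-rich protein that acts as Mastermind does in flies, was dim, with levels of 5.56 ± 0.16, 5.38 ± 0.11 and 5.38 ± 0.26 (SD, n = 3 each) in the 3 groups. It differed from control by -0.18 ± 0.14 in smo-1 RNAi (limma adjusted p = 0.368) and by -0.17 ± 0.14 under sdc-2(y93)+RNAi (adjusted p = 0.447), and the arrays overlapped.

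The receptor-processing genes were measured at middle to high levels. SUP-17 is the ADAM protease that makes the outer cut, and sup-17 had 3 probe sets. The brightest read 11.24, 11.04 and 11.05 in control, 10.88, 10.47 and 10.93 in smo-1 RNAi and 11.76, 12.10 and 11.89 under sdc-2(y93)+RNAi. By it sup-17 was 1.75-fold higher under sdc-2(y93)+RNAi (log2 0.81 ± 0.14, limma adjusted p = 0.00148) and differed by -0.35 ± 0.14 under smo-1 RNAi (adjusted p = 0.065). The second brightest gave the same directions and passed in both groups, with 0.48 ± 0.08 (limma adjusted p = 0.00162 over all probe sets with 1 gene) and -0.27 ± 0.08 (adjusted p = 0.0243). The dimmest read 9.62, 9.43 and 9.62 in control, 8.78, 8.87 and 8.82 in smo-1 RNAi and 9.21, 9.04 and 9.19 under sdc-2(y93)+RNAi, so that control was the highest group and none of the groups overlapped. By the dimmest probe set sup-17 was lower in both groups, with differences of -0.73 ± 0.09 under smo-1 RNAi (limma adjusted p = 8.21e-05 over all probe sets with 1 gene) and -0.41 ± 0.09 under sdc-2(y93)+RNAi (adjusted p = 0.00572). All 3 probe sets of sup-17 placed smo-1 RNAi below control and below sdc-2(y93)+RNAi, and they split on the sdc-2(y93)+RNAi group. The fall under smo-1 RNAi passed by 2 of the 3 probe sets, but not by the brightest, which represents sup-17 in the counts.

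The presenilins are the catalytic subunits of gamma-secretase, and C. elegans somatic and germ cells use SEL-12 and HOP-1. On the control arrays sel-12 read 9.20, 9.08 and 9.34, on the smo-1 RNAi arrays 8.73, 8.88 and 8.74, and on the sdc-2(y93)+RNAi arrays 9.61, 9.30 and 9.59. The smo-1 RNAi arrays lay below all others, and sdc-2(y93)+RNAi overlapped control by a narrow margin. Under smo-1 RNAi sel-12 was 1.34-fold lower (log2 -0.42 ± 0.11, limma adjusted p = 0.0109), a call lost without control replicate 3 (adjusted p = 0.0533) and with each array centred on bright autosomal genes (-0.22, adjusted p = 0.0965). The sel-12 difference under sdc-2(y93)+RNAi was 0.29 ± 0.11 (limma adjusted p = 0.0835, 95% interval 0.04 to 0.54). It is the X-linked gene of the 10. Among 2353 X-linked genes the called ones were 818 higher and 286 lower under smo-1 RNAi, and 862 higher and 48 lower under sdc-2(y93)+RNAi. The fall of sel-12 in smo-1 RNAi thus ran against most called X-linked genes. The other presenilin gene, hop-1, read 7.45, 7.30 and 7.60 in control, 7.14, 7.02 and 7.27 in smo-1 RNAi and 8.01, 7.63 and 7.62 under sdc-2(y93)+RNAi. Its arrays showed the order of sel-12 without overlap, but neither difference from control passed: -0.31 ± 0.13 in smo-1 RNAi (limma adjusted p = 0.0842) and 0.30 ± 0.13 under sdc-2(y93)+RNAi (adjusted p = 0.124). APH-1 is a further subunit of gamma-secretase, and aph-1 gave 9.02 ± 0.13, 8.77 ± 0.16 and 8.88 ± 0.16 (SD, n = 3 each) in control, smo-1 RNAi embryos and those of sdc-2(y93)+RNAi. Those arrays overlapped, and the differences of aph-1 from control, -0.25 ± 0.12 and -0.14 ± 0.12, did not pass (limma adjusted p = 0.12 and 0.467).

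Set directly against sdc-2(y93)+RNAi, smo-1 RNAi embryos had less of 7 of the 10 genes, with 35.6% of all genes past the threshold in this comparison and 17.2% lower. The 7 were glp-1, lin-12, apx-1, lag-1, sup-17, sel-12 and hop-1, and the other 3 (lag-2, sel-8 and aph-1) did not pass. The median log2 difference was -0.57 over the 10 genes, against -0.01 over all genes and -0.05 over genes above the median level, of which 56% passed. The difference of sup-17 was 2.23-fold (log2 -1.16 ± 0.14, limma adjusted p = 8.2e-05), that of sel-12 was 1.64-fold (-0.71 ± 0.11, limma adjusted p = 0.00051), and that of hop-1 was 1.53-fold (-0.61 ± 0.13, limma adjusted p = 0.00352). In this comparison the sign of sup-17 and lag-1 was the same by all of their probe sets, while the size for sup-17 was smaller by its dimmest probe set (-0.32 ± 0.09). The difference of apx-1, -0.53 ± 0.16 by its brighter probe set (limma adjusted p = 0.0257), was 0.01 ± 0.09 by the dimmer one. It did not pass without smo-1 RNAi replicate 2 or 3 (adjusted p = 0.101 and 0.0915) or sdc-2(y93)+RNAi replicate 2 or 3 (adjusted p = 0.0762 and 0.0635).

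The split between probe sets of apx-1, lag-1 and sup-17 followed the identifiers of the array. Their brightest probe sets have identifier numbers of at most 175845, a class called low-numbered here, and were the probe sets that represented these genes. The class was defined after the data were seen, as the identifiers up to the highest-numbered early probe set that the annotation lists with an accession. Both probe sets of sdc-2 are in it. Over the array 2152 genes were read by probe sets of both classes. Within the same gene the low-numbered ones gave a log2 difference from control higher by a median of 0.31 under smo-1 RNAi, in 80.8% of the genes, and by 0.44 under sdc-2(y93)+RNAi, in 85.9%. Under smo-1 RNAi the median log2 difference from control was -0.0022 by the low-numbered and -0.27 by the other probe sets of these genes. Under sdc-2(y93)+RNAi these medians were 0.32 and -0.12. For smo-1 RNAi against sdc-2(y93)+RNAi the median difference between the classes was -0.14, and the low-numbered ones were higher in 36% of the genes. Array by array, with the control mean set to 0, this difference between classes was 0.02, 0.02 and -0.04 in control, 0.33, 0.23 and 0.36 in smo-1 RNAi and 0.31, 0.61 and 0.41 under sdc-2(y93)+RNAi. It was therefore above control on all 6 arrays of the perturbed groups. For actin, the 3' probe set of the array over its 5' probe set was also higher than in control, by 0.66 (log2) under smo-1 RNAi and 0.81 under sdc-2(y93)+RNAi, while for GAPDH the differences were -0.26 and 0.52, for ubiquitin 0.32 and 0.34, and for catalase 0.86 and -0.08. Whether RNA quality plays a part in the split between classes was not tested.

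**Figure D2:**
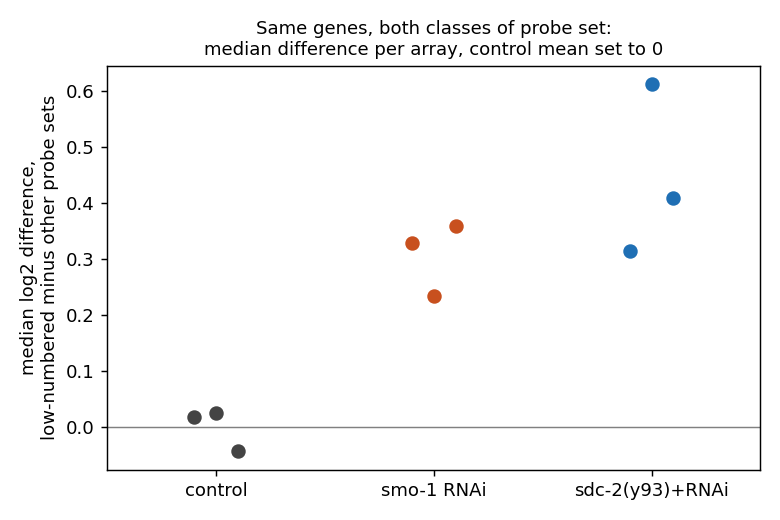
Median over 2152 genes of the log2 level by low-numbered probe sets minus that by other probe sets of the same gene (y axis), for each array by group (x axis), with the mean of the control arrays set to 0. The 3 control arrays lie between -0.04 and 0.02, and the 6 arrays of the perturbed groups between 0.23 and 0.61.

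With only probe sets outside this class, the counts of the Notch genes changed. Under smo-1 RNAi 5 of the 10 then fell (glp-1, lin-12, lag-1, sup-17 and sel-12), where 41.5% of the 16011 genes so measured passed. Under sdc-2(y93)+RNAi 2 of the 10 then fell (lin-12 and sup-17) and none of the other 8 passed, where 24.2% of genes passed. Against sdc-2(y93)+RNAi, smo-1 RNAi embryos were lower in 6 of the 10, where 33.9% of genes passed. No rise of a Notch gene under sdc-2(y93)+RNAi was therefore given by probe sets of both classes, while the falls of glp-1 and lin-12 rest on the other class alone, since they have no low-numbered probe set. The same holds for sel-12. Over the 2152 genes read by both classes, that other class had a median log2 difference of -0.27 under smo-1 RNAi. For apx-1 the other class was read by a dim probe set alone, where a small rise may not be seen.

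**Figure D3:**
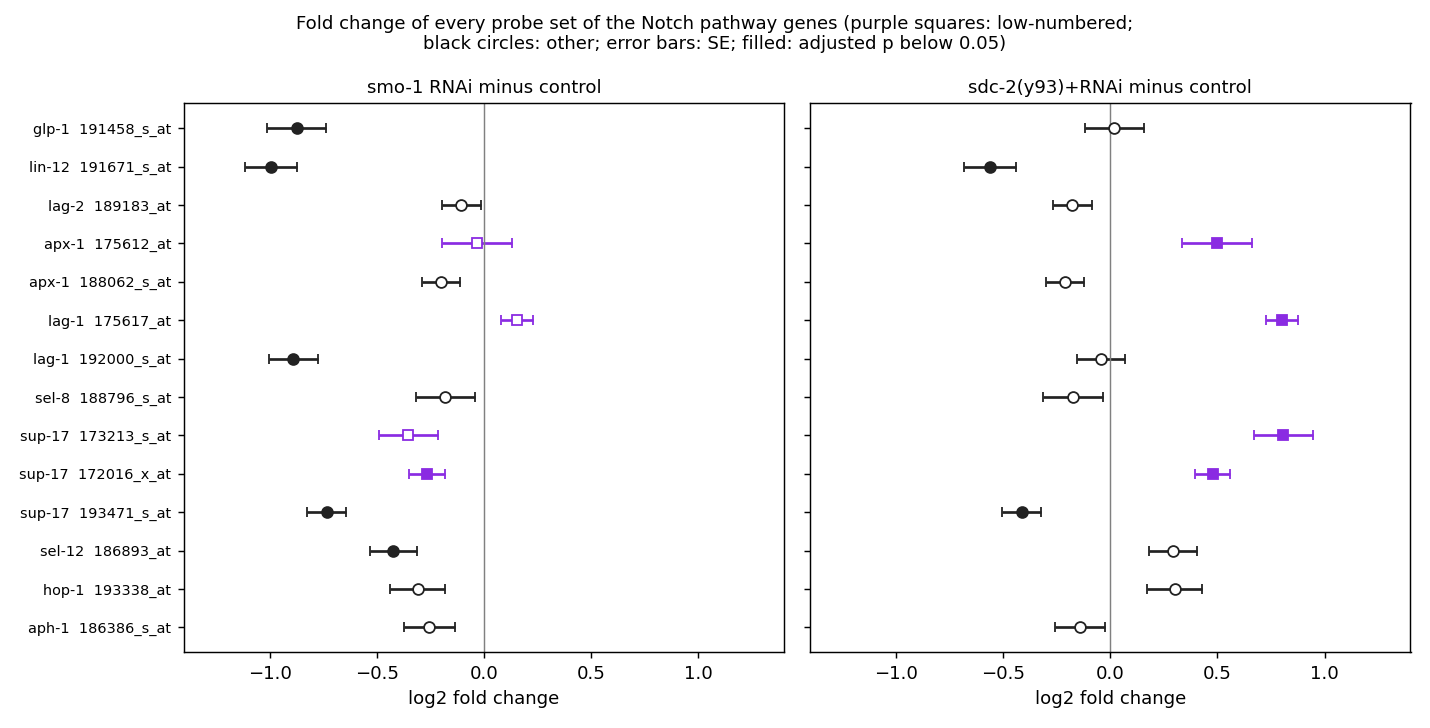
Log2 fold change against control (x axis, error bars SE) of each of the 14 probe sets of the 10 Notch pathway genes, for smo-1 RNAi (left) and sdc-2(y93)+RNAi (right); purple squares are low-numbered probe sets, black circles the others, and filled symbols have a limma adjusted p below 0.05. On the right the 4 purple squares, of apx-1, lag-1 and sup-17, are at 0.48 or above, and the black circles of the same genes are below 0.

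The wider pathway was described with 54 more genes in 6 lists of ligands, protease subunits, regulators and targets, of which 47 had a probe set of their own. Under smo-1 RNAi 10 of the 47 rose and 18 fell, and under sdc-2(y93)+RNAi 12 rose and 7 fell. That is 21.3% higher and 38.3% lower against 17.8% and 22.2% of all genes under smo-1 RNAi, and 25.5% higher and 14.9% lower against 10.9% and 15.6% under sdc-2(y93)+RNAi. The shares called in all were 59.6% under smo-1 RNAi and 40.4% under sdc-2(y93)+RNAi. Only 34 of the 47 lay above the median level of all genes. In a fit of genes above that level alone, 73.5% and 55.9% of the 34 passed, against 62.9% and 51.9% of all such genes. The 47 genes had median log2 differences of -0.18 and 0.08. Of 9 X-linked ones 6 rose in each group and the other 3 did not pass, where 34.8% of all X-linked genes rose under smo-1 RNAi and 36.6% under sdc-2(y93)+RNAi. Of the 38 autosomal ones 4 rose and 18 fell under smo-1 RNAi, and 6 rose and 7 fell under sdc-2(y93)+RNAi. Of all autosomal genes 15% rose and 23.8% fell in the former comparison, and 6.75% rose and 17.8% fell in the latter. The counts also differed by class of probe set. Under sdc-2(y93)+RNAi 9 of the 14 genes represented by low-numbered probe sets rose and the other 5 did not pass, against 3 that rose and 7 that fell of the other 33. Of the 14, 5 are X-linked, and all 5 rose. Over the array 35.6% of genes so represented rose and 11.6% fell in that comparison, against 6.23% and 16.4% of genes represented by other probe sets.

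Among the 12 further ligands, 4 rose and 5 fell under smo-1 RNAi, and 1 rose and 3 fell under sdc-2(y93)+RNAi, where 39.9% and 26.5% of all genes passed. The largest values belonged to osm-11, an X-linked gene of a secreted co-ligand with a DOS motif. It read 8.13, 8.08 and 7.77 in control, 11.13, 10.96 and 11.40 in smo-1 RNAi and 9.36, 9.62 and 9.64 under sdc-2(y93)+RNAi, with no overlap between groups. The rise of osm-11 on the log2 scale was 3.17 ± 0.14 under smo-1 RNAi (limma adjusted p = 5.87e-08) and 1.55 ± 0.14 under sdc-2(y93)+RNAi (adjusted p = 4.91e-05). Its other probe set gave 1.03 ± 0.12 (limma adjusted p = 7.06e-05) and 0.23 ± 0.12 (adjusted p = 0.218), so the rise in smo-1 RNAi was seen by both and the size was not. Both are low-numbered, so osm-11 was not read by a probe set outside that class. The DSL genes dsl-3 and dsl-6 fell in both groups. For dsl-3 the differences were -1.52 ± 0.11 (limma adjusted p = 2.46e-06) in smo-1 RNAi and -1.17 ± 0.11 (adjusted p = 6.55e-05) under sdc-2(y93)+RNAi, and for dsl-6 -1.20 ± 0.09 and -0.47 ± 0.09 (adjusted p = 2.78e-06 and 0.00337). A rise of dsl-5, by 0.74 ± 0.10 under smo-1 RNAi (limma adjusted p = 0.000116), started from the low level of 5.42 ± 0.08.

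Of the other gamma-secretase subunit genes, aph-2 and pen-2 fell in both groups. The nicastrin gene aph-2, whose product is the large outer subunit, read 10.09, 9.99 and 10.18 in control, 9.14, 9.24 and 9.24 in smo-1 RNAi and 9.80, 9.70 and 9.86 under sdc-2(y93)+RNAi. Control was the highest group and smo-1 RNAi the lowest, without overlap, as for lin-12. The falls of aph-2 were -0.88 ± 0.09 (limma adjusted p = 1.79e-05) and -0.30 ± 0.09 (adjusted p = 0.0258). The fall of pen-2, which encodes the smallest subunit, was -0.84 ± 0.15 in smo-1 RNAi (limma adjusted p = 0.00109) and -0.64 ± 0.15 under sdc-2(y93)+RNAi (adjusted p = 0.0096). The sperm presenilin gene spe-4 was near the bottom of the scale, 5.07 ± 0.04 in control, and was 0.29 ± 0.09 higher under sdc-2(y93)+RNAi (limma adjusted p = 0.0369). In this list of 4, 2 fell under smo-1 RNAi, 2 fell and 1 rose under sdc-2(y93)+RNAi, and adm-4, of a second ADAM protease, passed in neither. For comparison, 22.2% of all genes fell under smo-1 RNAi, and 15.6% fell and 10.9% rose under sdc-2(y93)+RNAi.

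Of 4 positive factors 2 rose and 1 fell under smo-1 RNAi, and 3 rose under sdc-2(y93)+RNAi while tsp-12 did not pass (all genes passing, 39.9% and 26.5%). The X-linked epsin gene epn-1, needed for ligand activity through endocytosis, was higher by 0.34 ± 0.10 (limma adjusted p = 0.0229) and 0.98 ± 0.10 (adjusted p = 9.6e-05). The tetraspanin gene tsp-12 fell by 0.67 ± 0.09 under smo-1 RNAi (limma adjusted p = 0.000213). By its other probe set epn-1 was 0.80 higher under sdc-2(y93)+RNAi (adjusted p = 0.000196) but gave -0.28 under smo-1 RNAi (adjusted p = 0.0349). The X-linked sel-7, of a nuclear protein that acts in LIN-12 signalling, was higher by 0.77 ± 0.15 (limma adjusted p = 0.00156) and 0.61 ± 0.15 (adjusted p = 0.0101). By its other probe set sel-7 gave 0.08 and 0.24 and passed in neither group (adjusted p = 0.711 and 0.236). The rise of emb-5, of an Spt6-like transcription factor, under sdc-2(y93)+RNAi was 0.55 ± 0.08 (limma adjusted p = 0.000735) by its low-numbered probe set and 0.17 (adjusted p = 0.371) by the other.

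Among 13 negative regulators and suppressors 1 rose and 5 fell under smo-1 RNAi, and 4 rose and 2 fell under sdc-2(y93)+RNAi. The share called was 46.2% in each, against 39.9% and 26.5% of all genes and 60.7% and 47.7% of those above the median level. The gene that rose in smo-1 RNAi was alx-1, which encodes an ALIX-like protein that helps to break down LIN-12, by 0.83 ± 0.10 (limma adjusted p = 9.59e-05) and by 0.78 with its other probe set (adjusted p = 0.000199). Among those that fell were sel-2, of a BEACH-domain protein in endosomal traffic (-0.83 ± 0.09, limma adjusted p = 4.32e-05), and sel-11, of a ubiquitin ligase (-0.77 ± 0.11, adjusted p = 0.000241). The latter differed by -0.38 and did not pass with its low-numbered probe set (adjusted p = 0.0541). The 4 that rose under sdc-2(y93)+RNAi, sel-1, sel-10, ubr-5 and spr-3, were all represented by low-numbered probe sets. By its other probe set sel-10 was lower in that group (-0.35, limma adjusted p = 0.0231) and under smo-1 RNAi (-1.19, adjusted p = 6.53e-06). Those of sel-1 and ubr-5 gave -0.07 (adjusted p = 0.772) and 0.09 (adjusted p = 0.554) under sdc-2(y93)+RNAi. Counted as not passing under smo-1 RNAi, sel-5 and spr-1 also read lower there by other probe sets. For sel-5 these gave -1.10, -0.68 and -0.30 (limma adjusted p = 4.43e-06, 0.000295 and 0.205). For spr-1 a dim one gave -0.66 (adjusted p = 0.000267). The X-linked spr-3, of a zinc-finger protein whose loss suppresses sel-12 mutants, was higher under sdc-2(y93)+RNAi by 0.62 ± 0.11 (limma adjusted p = 0.00146), and by 0.70 with its other probe set (adjusted p = 0.000535). Under smo-1 RNAi spr-3 differed by -0.12 ± 0.11 (limma adjusted p = 0.449), while its other probe set fell by 0.64 (adjusted p = 0.000432).

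**Figure D4:**
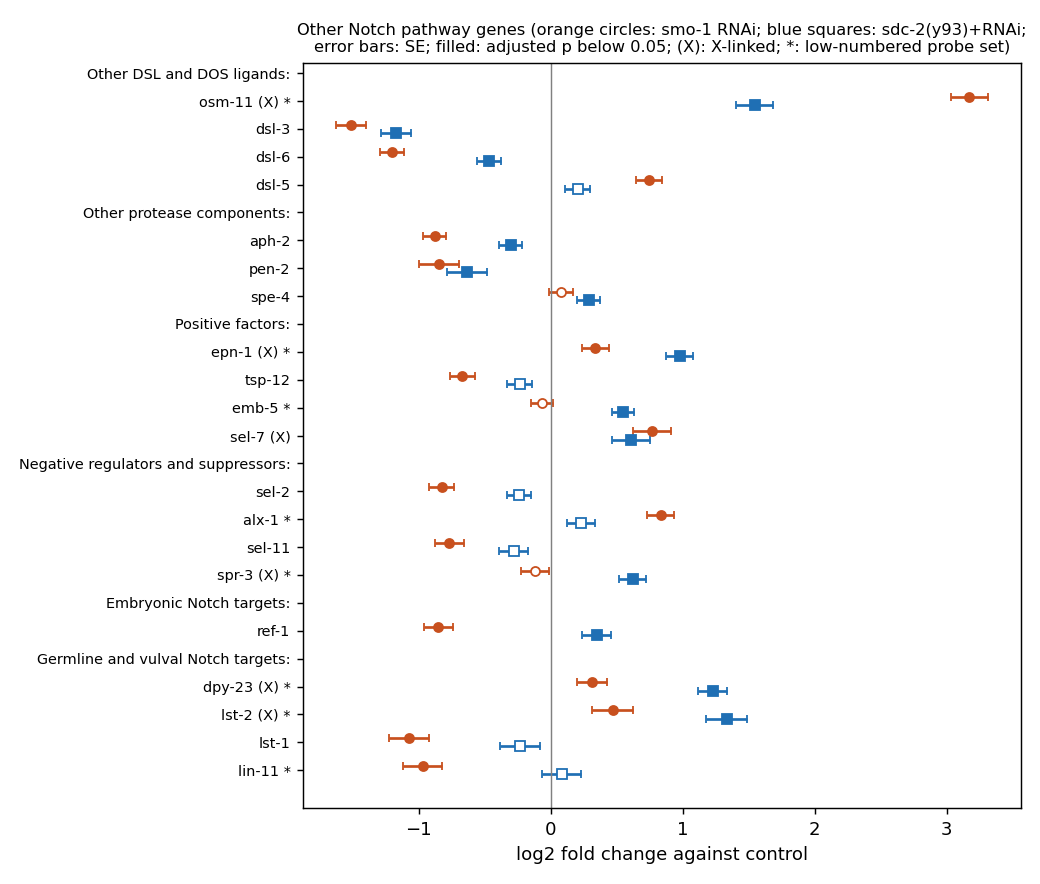
Log2 fold change against control (x axis, error bars SE) of the named genes of the wider pathway (y axis, by list), orange circles for smo-1 RNAi and blue squares for sdc-2(y93)+RNAi, filled where the limma adjusted p was below 0.05; (X) marks X-linked genes and an asterisk low-numbered probe sets. The osm-11 points are at 3.17 and 1.55, and the ref-1 points lie on opposite sides of 0.

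Of the embryonic Notch targets, ref-1 was the gene with a level well above the dim range. REF-1 family proteins are transcription factors of the bHLH type that several embryonic Notch interactions switch on directly. On the control arrays ref-1 read 8.01, 7.87 and 7.83, on the smo-1 RNAi arrays 7.04, 7.19 and 6.92, and on the sdc-2(y93)+RNAi arrays 8.39, 8.28 and 8.09. The groups did not overlap and lay on either side of control. The fall of ref-1 under smo-1 RNAi was -0.85 ± 0.11 (limma adjusted p = 0.000111), its rise under sdc-2(y93)+RNAi 0.35 ± 0.11 (adjusted p = 0.0374), and the direct difference -1.20 ± 0.11 (adjusted p = 1.35e-05). The other 3 targets measured, hlh-26, tbx-37 and tbx-38, did not pass in either comparison with control. Their control levels were 6.02 ± 0.14, 4.89 ± 0.11 and 6.57 ± 0.16. In all, 1 of the 4 passed in each comparison with control, against 39.9% and 26.5% of all genes. The list does not separate targets that Notch raises from those it lowers. The probe set shared by hlh-25 and hlh-27 read 6.24 ± 0.06 in control, 6.20 ± 0.08 in smo-1 RNAi and 6.63 ± 0.46 under sdc-2(y93)+RNAi (SD, n = 3), and that of hlh-28 and hlh-29 read 5.10 ± 0.16, 4.97 ± 0.08 and 5.14 ± 0.07.

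Of 10 targets known from the germline and the vulva, 3 rose and 4 fell under smo-1 RNAi, and 2 rose under sdc-2(y93)+RNAi while 8 did not pass. The shares called, 70% and 20%, compare with 39.9% and 26.5% of all genes and 60.7% and 47.7% of those above the median level. Not all of the 10 lie above that level. The pair that rose were X-linked, dpy-23, of an adaptor subunit for clathrin-coated vesicles, and lst-2. Their rises under sdc-2(y93)+RNAi were 1.23 ± 0.11 (limma adjusted p = 4.68e-05) and 1.33 ± 0.16 (adjusted p = 0.000166), and their other probe sets gave 1.10 and 0.99. The 3 that rose under smo-1 RNAi, dpy-23, lst-2 and lst-4, were all represented by low-numbered probe sets. There the other probe sets gave 0.05 for dpy-23 (limma adjusted p = 0.705) and 0.39 for lst-2 (adjusted p = 0.00724). Those of lst-4 gave 0.06, -0.33 and 0.19 (adjusted p = 0.804, 0.0438 and 0.158). The germline target lst-1, which GLP-1 signalling switches on to keep stem cells, fell by 1.07 ± 0.15 under smo-1 RNAi (limma adjusted p = 0.000232) and differed by -0.24 ± 0.15 under sdc-2(y93)+RNAi (adjusted p = 0.334). The LIM homeobox gene lin-11 fell by 0.97 ± 0.15 under smo-1 RNAi (limma adjusted p = 0.000368), and gave -0.74 with its other probe set (adjusted p = 0.000492).

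Markers of embryonic stage moved with the smo-1 RNAi group, in which 17.8% of all genes rose and 22.2% fell. Of 20 maternal and oocyte messengers 14 fell and 1 rose under smo-1 RNAi (median log2 difference -0.49), and their mean log2 level was 8.41 to 8.60 on the 3 arrays, against 8.95 to 9.15 in control. Of 13 early zygotic genes 8 fell and the other 5 did not pass (median -0.79), with mean levels of 6.63 to 6.90 against 7.28 to 7.55. Of 20 genes of differentiated muscle, gut, neurons and skin 15 rose and 3 fell (median 0.98), with mean levels of 10.9 to 11.1 against 9.97 to 10.3. Under sdc-2(y93)+RNAi, in which 10.9% of all genes rose and 15.6% fell, 7 maternal messengers rose and 1 fell (median 0.29), 5 of the 7 by low-numbered probe sets. There 1 early zygotic gene rose, and 3 genes of differentiated tissues rose and 4 fell. With smo-1 RNAi set directly against sdc-2(y93)+RNAi, 18.4% of all genes were higher and 17.2% lower. In that comparison 17 of the 20 maternal messengers were lower and 0 higher (median -0.87). Of the 13 early zygotic genes 8 were lower and 0 higher (median -0.88). Of the 20 genes of differentiated tissues 14 were higher and 1 lower (median 0.87). The 7 markers of adult yolk and sperm read between 4.63 and 6.43 on all arrays, and limma called 0 of them in any comparison, with 0 at an unadjusted p below 0.05. What part the mixture of embryonic stages has in the levels of the Notch genes was not tested.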

How the data were processed

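The authors' deposited values are log2 levels per probe set, and the submitters' processing notes name RMA and Affymetrix Expression Console, with no version or options. Because RMA equalises the arrays' distributions, a shift shared by all transcripts is not visible, and dim genes differ by less than their transcripts do. Array medians were between 6.51 and 6.72, and arrays correlated at 0.984 to 0.997 within groups and 0.926 to 0.979 between them.

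The 22625 probe sets comprise 20766 with 1 annotated gene, 887 with several, 895 without an entry in the annotation table used, and 77 manufacturer controls. Current symbols and chromosomes came from RefSeq genes of WBcel235. For each of the 17118 genes the probe set of highest mean level over the 9 arrays was used, which was low-numbered for 15.8% of them. The test was limma (version 3.58.1, R version 4.3.3; lmFit, then eBayes), two-sided, on all 9 arrays together with no covariate and 6 residual degrees of freedom. P-values were adjusted by Benjamini-Hochberg across all genes, with calls made below 0.05. Values for single probe sets come from the same fit over all probe sets with 1 gene. Errors of levels are SD and of differences SE.

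Titles gave the groups and replicate numbers. The Notch genes, the other pathway lists, the markers and the tests were chosen with earlier results of these data known. All 10 Notch genes are named. Of each pathway list up to 4 genes with the smallest adjusted p are named, with some others beside the counts, and for each receptor the 3 genes with the highest correlation. The class of low-numbered probe sets was chosen after the data were seen. Alternatives were the choice of probe sets, a filter on dim genes, the variance model, array weights, scaling, thresholds, a replicate block, fits on the 6 arrays of a comparison, and fits without each array in turn. The steps were tested on simulated data, and all arrays entered the main results.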

Additional observations from a re-analysis of the deposited data

Results flagged for a closer look

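The manufacturer's hybridisation controls, which report on no worm gene, were higher on the sdc-2(y93)+RNAi arrays than on the control arrays by a median of 3.50 on the log2 scale over 18 probe sets. They were singled out because this is a signal in values that no comparison used and it lies above its level in the control arrays. On the smo-1 RNAi arrays the same median was -0.15. The control and smo-1 RNAi arrays lay between 4.64 and 6.45, and the sdc-2(y93)+RNAi arrays between 6.49 and 13.2, without overlap. The part of this difference in the values of Notch genes was not tested, and batch and group cannot be told apart.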

How the results depend on the processing

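The 14 called differences of Notch genes were recomputed 293 times, and 266 kept direction and call, 23 lost the call and 4 reversed. The 16 others were recomputed 325 times, and 281 kept direction and call, 23 gained a call and 21 reversed; no cause was tested. Notch genes past the threshold in smo-1 RNAi against control numbered 5 with the mean of all probe sets, 1 of 5 measured without probe sets that can bind related transcripts, 6 with array weights, 6 with centring on autosomal genes, 5 outside the low-numbered class and 0 of 3 with only that class. In sdc-2(y93)+RNAi they numbered 1 of 5 without related-transcript probe sets, 2 with a fold of at least 1.5 and 2 outside the class, and between the perturbed groups 4 of 5 and, with only low-numbered probe sets, 3 of 3. Other pathway genes numbered 9, 10 and 14 of 15 with only that class in the comparisons in this order, and 11 in sdc-2(y93)+RNAi with a fold of 1.5. All genes numbered 4301, 2573 and 3778 with a fold of 1.5, 1467, 1615 and 1760 of 3259 with only the class, and in sdc-2(y93)+RNAi 8381 with centring on bright autosomal genes and 2986 at an adjusted p of 0.01. Leaving out single arrays gave 2 to 4, 3 to 4 and 5 to 7 Notch genes, 24 to 30, 15 to 21 and 26 to 29 other pathway genes, and 5678 to 7572, 3555 to 4475 and 5243 to 6799 genes in all.

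Values that changed sign follow. With the mean of all probe sets lag-1 in smo-1 RNAi was -0.37 (adjusted p = 0.00444). With array weights sel-8 was 0.14 between the perturbed groups. Centring on autosomal genes gave lag-2 -0.13 there. Centring on bright autosomal genes gave, in smo-1 RNAi, lag-2 0.094, apx-1 0.17 and sel-8 0.021, and in sdc-2(y93)+RNAi lag-2 0.084, sel-8 0.088 and aph-1 0.12. Another quantile normalization gave apx-1 0.043 in smo-1 RNAi and lag-2 -0.027 between the perturbed groups. Outside the class, an alternative chosen after the data were seen, lag-1 was -0.89 in smo-1 RNAi; in sdc-2(y93)+RNAi apx-1 was -0.21, lag-1 -0.043 and sup-17 -0.41; and apx-1 was 0.0071 between the perturbed groups. Leaving out arrays gave -0.18 to 0.12 for apx-1 in smo-1 RNAi, -0.082 to 0.16 for glp-1 in sdc-2(y93)+RNAi and -0.14 to 0.13 for sel-8 between the perturbed groups. The rise of apx-1 in sdc-2(y93)+RNAi was 0.14 with the mean of its probe sets (adjusted p = 0.433) and 0.33 with array weights (adjusted p = 0.169). The difference of sup-17 in smo-1 RNAi gained a call under 8 alternatives, array weights (-0.44, adjusted p = 0.00783) among them.

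The centrings on autosomal and on bright autosomal genes moved the median of all genes to -0.13 and 0.20 in smo-1 RNAi and to 0.08 and 0.28 in sdc-2(y93)+RNAi, and to -0.21 with the first between the perturbed groups. The split of higher and lower genes was then 2390 and 5167 or 4967 and 2492 in smo-1 RNAi, 2260 and 2220 or 6901 and 1480 in sdc-2(y93)+RNAi, and 2236 and 6405 with the first between the groups. The replicate number as a block gave 3, 4 and 7 Notch genes, 28, 17 and 29 other pathway genes and 6829, 4549 and 6084 genes in all. Deviations from the group means gave mixed correlations between same-numbered arrays (9 pairs, -0.22 to 0.25, 3 over 0.1). The 18 other pairs ran from -0.29 to 0.20. Of 9 arrays 5 correlated best with their own number, so a pairing by number was not settled. Dim genes such as lag-2 and sel-8 lay near the background signal, where small differences cannot be seen.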
